A study of Mus musculus with 20 samples.

Results

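Mast cell proteases and receptors were followed across 20 arrays of sorted effector T cells (CD44+CD8+) taken from mouse lungs with tumours. The 9 genes are Cma1, Mcpt1, Mcpt2, Mcpt4, Cpa3, Tpsb2, Ms4a2, Fcer1a and Kit, out of 17097 genes measured. They were taken by name, and for Tpsb2 and Ms4a2, each with 2 probe sets, the probe set of the higher mean over all arrays was used. All 9 were measured, and no filter on level was applied. The names were put together after an earlier look at these arrays had shown mast cell genes among the largest changes, Cma1 and Mcpt2 with SD-101 among them. In every comparison that shares arrays with SD-101 against saline their values are therefore a description, with no p-value. Counts of them past a threshold there were shaped by that choice and support nothing. Such counts stand beside the share of all genes, except those under other settings in the closing section.

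The cells came from lungs bearing 4T1, a transplantable mouse mammary carcinoma line, in mice dosed through the nose. The 4 groups were Saline-CTRL (5 arrays), SD-101, a synthetic ligand of the DNA sensor TLR9 (6 arrays), SD-101+anti-PD-1, in which an antibody against the inhibitory T cell receptor PD-1 was added (5 arrays), and SD-101+anti-PD-1+a-CD4, which further received the agent the labels call a-CD4 (4 arrays). The last 2 groups are called the PD-1 combination and the CD4 combination from here on. The labels give no strain, age or animal number, and do not say whether arrays of a group came from separate mice, so all p-values measure the spread between these arrays, which may be technical. Values are deposited log2 intensities per probe set on a scale from 1.78 to 13.44. Levels of different genes cannot be compared on this scale.

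Mast cells are tissue-resident granulocytes that store proteases in their granules and release them when IgE bound to the receptor FceRI is crosslinked. The granule proteases of the mouse comprise chymases (Cma1, Mcpt1, Mcpt2 and Mcpt4), tryptases (Tpsb2) and carboxypeptidase A3 (Cpa3). Mcpt1 and Mcpt2 mark mast cells of mucosal surfaces, and Mcpt4, Cpa3 and Tpsb2 are best known from those of connective tissue. Fcer1a and Ms4a2 encode the alpha and beta chains of FceRI, which basophils carry too, and Kit encodes the receptor for stem cell factor, needed for mast cell survival. None of the 9 is a T cell gene by background knowledge, and Cd8a, which the sort selects for, lay between 9.45 and 11.66 on all arrays. T cell transcripts were uneven. The mean of 11 T cell identity genes was 8.58 on CD4 combination replicate 2 and 10.24 to 10.51 on the other arrays of that group. It was 9.02 on saline replicate 1 and 9.53 to 10.40 on the other saline arrays. In such bulk material fewer cells of a type and less RNA per cell cannot be told apart.

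The chymase genes lie next to one another on chromosome 14, and the sequences before the start sites of those in the table are shown. Cma1 and Mcpt1 moved together across the groups, and Mcpt4, with the same highest and lowest group, changed by less. Cpa3, on chromosome 3, is shown as the other protease with the same highest and lowest group mean. The 250 bases before each start are from RefSeq (build GRCm38.p6), written from 5′ to 3′ on the gene's strand. Capitals mark GATAA, or TTATC where it lies on the opposite strand, a short motif that GATA factors, the blood cell regulators GATA2 among them, are known to bind.
Cma1, chr14:55944676-55944925, minus strand: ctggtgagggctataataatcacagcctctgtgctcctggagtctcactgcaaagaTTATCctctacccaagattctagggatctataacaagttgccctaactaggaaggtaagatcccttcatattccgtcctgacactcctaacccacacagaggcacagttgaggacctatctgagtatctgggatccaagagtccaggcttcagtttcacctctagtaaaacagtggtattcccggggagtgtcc
Mcpt1, chr14:56017714-56017963, plus strand: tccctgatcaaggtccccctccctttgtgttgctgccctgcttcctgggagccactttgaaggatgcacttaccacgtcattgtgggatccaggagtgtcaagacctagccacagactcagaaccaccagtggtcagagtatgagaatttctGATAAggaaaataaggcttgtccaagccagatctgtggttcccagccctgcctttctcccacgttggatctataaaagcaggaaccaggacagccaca
Mcpt4, chr14:56062311-56062560, minus strand: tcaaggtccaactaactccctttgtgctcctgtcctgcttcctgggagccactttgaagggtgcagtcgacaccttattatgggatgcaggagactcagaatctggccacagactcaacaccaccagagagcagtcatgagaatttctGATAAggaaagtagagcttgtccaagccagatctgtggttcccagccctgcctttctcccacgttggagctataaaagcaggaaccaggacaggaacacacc
Cpa3, chr3:20242182-20242431, minus strand: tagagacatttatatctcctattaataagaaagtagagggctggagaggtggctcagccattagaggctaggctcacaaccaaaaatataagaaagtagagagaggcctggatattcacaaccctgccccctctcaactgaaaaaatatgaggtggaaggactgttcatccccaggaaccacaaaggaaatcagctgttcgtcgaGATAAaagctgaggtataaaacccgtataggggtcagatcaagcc

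The Mcpt1 and Mcpt4 windows were 81.9% identical over 260 aligned columns, and Cma1 and Mcpt1 51.3% identical over 298. In Mcpt1 and Mcpt4 the motif began 98 and 102 bases before the start. In Cpa3 it began 45 bases before it, and in Cma1, on the opposite strand, 194 bases before it. Of the 7 genes with a window in the table (Mcpt2 and Tpsb2 had none), 6 held GATAA on either strand within these 250 bases. In all windows of this length 22.6% of 32841 held it. Kit had no match, which says only that these letters are not in this window. CATGTG, the other motif searched on either strand, was held by 1 of the 7 genes, beside 12.3% of all windows.

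The chymase genes Cma1, Mcpt1, Mcpt2 and Mcpt4 all had their highest group means with SD-101 alone and their lowest with the PD-1 combination. The differences of Mcpt4 were the smallest. Cma1 encodes a protease listed under the synonym Mcpt5. Its log2 values were 3.76, 3.57, 3.87, 3.07 and 3.40 on the 5 saline arrays, and ran from 4.96 over a median of 6.33 to 6.78 with SD-101. They were 2.96, 3.76, 2.61, 2.88 and 3.36 with the PD-1 combination, and 3.66, 4.61, 3.76 and 4.05 with the CD4 combination. All 6 SD-101 arrays lay above each of the other 14 arrays, and the other 3 groups overlapped one another. The log2 difference to saline was 2.57 (SE 0.28), a 5.92-fold higher intensity. That of the PD-1 combination to SD-101 was -2.99 (SE 0.28), and that of the CD4 combination to SD-101 was -2.08 (SE 0.30).

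Mcpt2, a protease of mucosal mast cells, had the same order of groups. Its values were 4.07, 5.17, 6.24, 4.49 and 3.35 with saline, and 5.81 to 8.21 with a median of 7.02 with SD-101. With the PD-1 combination they were 2.92, 4.78, 3.31, 3.43 and 2.85, and with the CD4 combination 4.37, 5.24, 5.03 and 5.68. The SD-101 arrays lay above all arrays of both combination groups, and overlapped saline through a single saline array, replicate 3 at 6.24. Saline overlapped both combination groups. The log2 difference of SD-101 to saline was 2.40 (SE 0.48), and that of the PD-1 combination to SD-101 was -3.60 (SE 0.48), or 12.1-fold lower.

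Mcpt1, the mucosal chymase beside Mcpt2 on the chromosome, was 2.90, 3.86, 4.96, 2.98 and 2.53 with saline and 3.63 to 7.05 with a median of 5.16 with SD-101. It was 2.38, 2.94, 2.05, 2.74 and 2.11 with the PD-1 combination, and 2.95, 3.16, 4.07 and 3.82 with the CD4 combination. With the PD-1 combination all 5 arrays were below all SD-101 arrays, at a log2 difference of -2.76 (SE 0.48). SD-101 overlapped saline, with a difference of 1.76 (SE 0.48), and overlapped the CD4 combination through SD-101 replicate 1 at 3.63. On the same SD-101 array Cma1, at 4.96, and Mcpt2, at 5.81, were also lowest of their group. Mcpt1 and Mcpt2 were highest together as well, at 7.05 and 8.21 on SD-101 replicate 2, and at 4.96 and 6.24 on saline replicate 3. Of the SD-101 arrays, replicate 2 was also the lowest in T cell transcripts. These genes are related in sequence, and cross-hybridisation between their probe sets was not tested.

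Some markers listed for other cells moved in the same direction as these chymases. Ncr1, an activating receptor of NK cells, was 6.01 to 8.06 with SD-101 and 4.46 to 5.78 with saline, and rose by 1.86 (limma adjusted p = 0.0447). Against SD-101 it fell by 1.77 in the PD-1 combination and by 2.89 in the CD4 combination (limma adjusted p = 0.0144 and 0.0118). The mean of the 9 measured NK markers was 5.39 to 6.07 with saline, 6.12 to 6.97 with SD-101, 6.00 to 6.33 with the PD-1 combination and 5.32 to 6.65 with the CD4 combination. Beside Ncr1, Klrc1 of this list rose by 1.58 in the CD4 combination against saline (limma adjusted p = 0.019). Klrb1c and Klra8 of the same list averaged 2.98 and 2.41 with saline and 3.05 and 2.53 with SD-101. The list also holds the granzyme gene Gzma, which cytotoxic T cells express, so its mean does not measure NK cells alone. Which cells carried these transcripts was not tested.

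Of 12 measured macrophage and monocyte markers, 10 had a positive difference with SD-101 and 10 a negative one in the PD-1 combination against SD-101. Only C1qa, a complement subunit made by macrophages, passed in any of the 6 comparisons, and fell by 1.37 in the latter (limma adjusted p = 0.0408). The mean of this list was 4.32 to 5.04 with saline, 4.50 to 6.65 with SD-101, 4.41 to 4.65 with the PD-1 combination and 4.12 to 4.98 with the CD4 combination. Of 9 B and plasma cell markers, the immunoglobulin genes Jchain and Ighm rose by 3.49 and 3.60 with SD-101 (limma adjusted p = 0.0145 and 0.0172). They also rose in the PD-1 combination against saline, by 2.85 and 2.76 (limma adjusted p = 0.0088 and 0.0178), where the chymases were not higher. The mean of that list was 4.65 to 5.44 with saline, 5.62 to 6.78 with SD-101, 5.59 to 6.19 with the PD-1 combination and 4.60 to 5.58 with the CD4 combination. What part such cells have in the values of the chymase genes was not tested.

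Mcpt4, a chymase of connective tissue mast cells, stayed within a narrow range, from 2.68 to 3.95 over all 20 arrays. Its mean of 3.26 was below every array median (3.52 to 3.75), so its differences may be understated. Group means were 3.32 ± 0.34 (SD, n = 5) with saline, 3.57 ± 0.25 (SD, n = 6) with SD-101, 2.91 ± 0.14 (SD, n = 5) with the PD-1 combination and 3.17 ± 0.23 (SD, n = 4) with the CD4 combination. SD-101 and the PD-1 combination did not overlap, with a log2 difference of -0.66 (SE 0.15), while each of the neighbouring groups in the order of means overlapped. Over the 20 arrays, group differences included, Mcpt4 correlated at 0.72 with Cma1, 0.82 with Mcpt1 and 0.78 with Mcpt2. The tryptase gene Tpsb2 was between 2.37 and 3.38 on all arrays, and its other probe set between 2.44 and 2.97. These values are low on the scale too, and whether Tpsb2 was detected was not tested. No pair of groups was separated in Tpsb2, and its group means ran from 2.60 to 2.93.

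**Figure D1:**
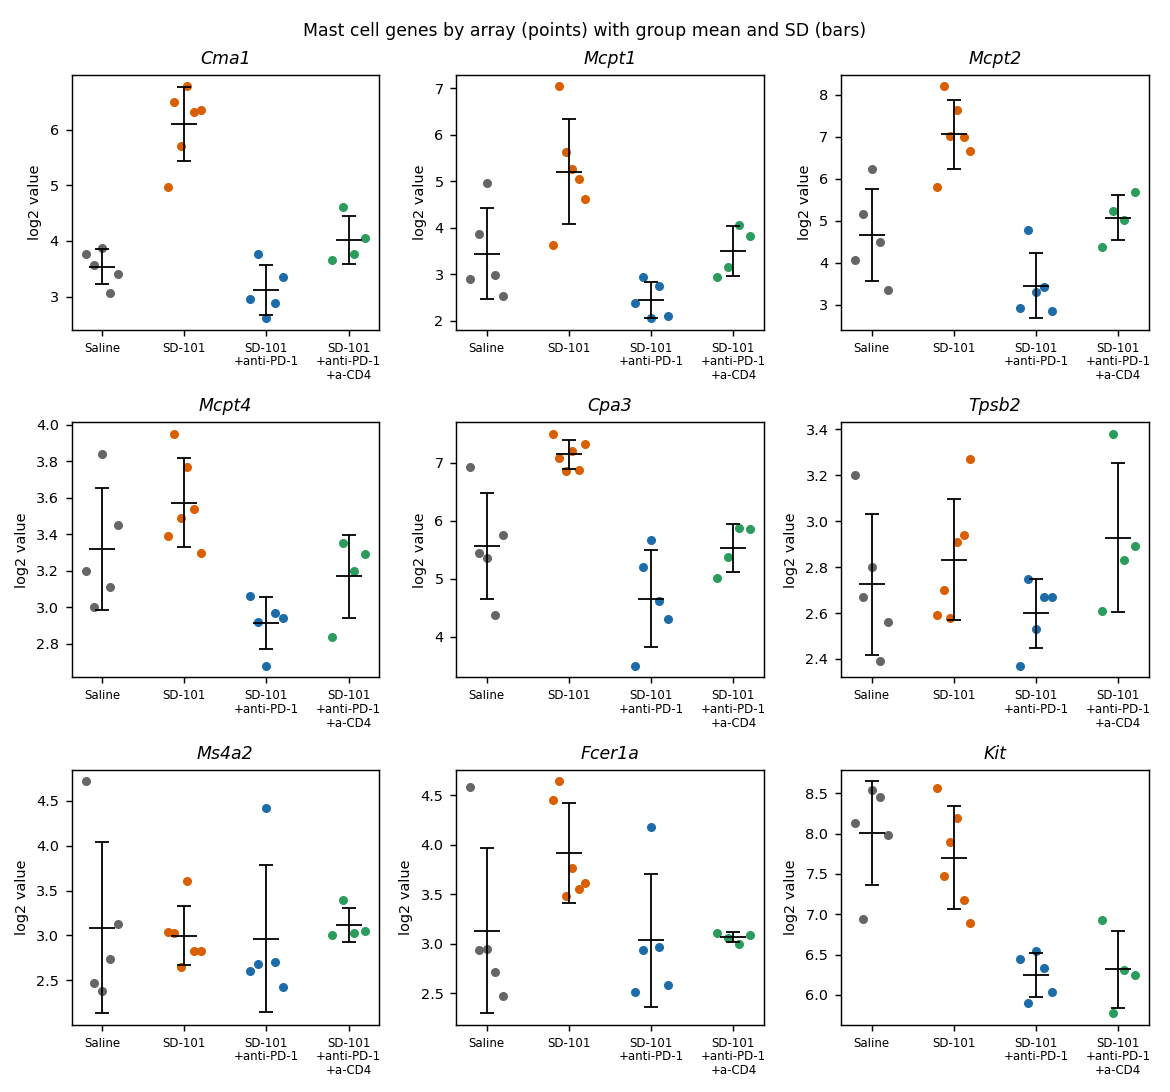
Deposited log2 intensity (y axis) of the 9 mast cell genes by group (x axis); each point is an array, and bars give the group mean with its SD (n = 5, 6, 5 and 4). In Cma1 the 6 SD-101 arrays sit between 4.96 and 6.78, above all other arrays, and in Kit the arrays of both combination groups sit between 5.77 and 6.93. The y axes differ between genes and do not start at 0.

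Cpa3, the carboxypeptidase of mast cell granules, which basophils express as well, was evenly high with SD-101. Its 6 arrays there ran from 6.86 to 7.5 with a median of 7.14. Saline values were 6.92, 5.44, 5.35, 4.37 and 5.76, and those with the PD-1 combination were 3.5, 5.21, 5.67, 4.61 and 4.31. With the CD4 combination they were 5.02, 5.38, 5.88 and 5.85. SD-101 lay above all arrays of both combination groups and above 4 of 5 saline arrays, with saline replicate 1 at 6.92 within its range. Saline and the combination groups overlapped. The log2 difference was 1.57 (SE 0.37) for SD-101 against saline and -2.48 (SE 0.37) for the PD-1 combination against SD-101.

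The chains of the IgE receptor had smaller differences and were high on single arrays. Both lay low on the scale, with means over all arrays of 3.33 for Fcer1a and 3.04 for Ms4a2. Their differences may be understated there, and whether the transcripts were detected was not tested. Fcer1a was 3.48 to 4.64 with a median of 3.68 with SD-101, while its saline values were 4.58, 2.94, 2.95, 2.71 and 2.47. It was 2.51, 2.94, 4.18, 2.97 and 2.58 with the PD-1 combination, and 3.0 to 3.11 on the 4 arrays of the CD4 combination. SD-101 was thus above that last group on all 6 arrays, and overlapped saline and the PD-1 combination through 1 array each. Ms4a2 was 4.72, 2.47, 2.38, 2.74 and 3.13 with saline and 2.65 to 3.61 with a median of 2.93 with SD-101. With the PD-1 combination it was 2.60, 2.68, 4.42, 2.70 and 2.42, and with the CD4 combination 3.0 to 3.40. Group means of Ms4a2 were within 2.96 and 3.12, and all groups overlapped. Its other probe set ranged from 2.37 to 3.15 over all arrays, with 3.15 on PD-1 combination replicate 3 and 2.94 on saline replicate 1.

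The 2 arrays with high Fcer1a and Ms4a2 outside SD-101 carried more neutrophil transcript than the other arrays of their groups. The neutrophil marker list (9 of 10 measured) averaged 10.24 on saline replicate 1 and 6.95 on PD-1 combination replicate 3. It averaged 3.72 to 4.13 on the other saline arrays and 4.23 to 5.38 on the other PD-1 combination arrays. Ctsg, the neutrophil protease cathepsin G, was 10.20 and 9.73 on these 2 arrays. Mcpt8, a protease that in mice marks basophils, was 7.38 on saline replicate 1, its highest value anywhere. On PD-1 combination replicate 3 it was 4.83, the top of its group's range from 3.10. That was below the CD4 combination arrays (4.89 to 5.26) and within the SD-101 range (4.51 to 6.60). Neutrophil markers averaged 9.37 on CD4 combination replicate 1, where Ms4a2 was 3.0 and Fcer1a 3.11. What part these transcripts have in the values of Fcer1a, Ms4a2 and Cpa3 was not tested. Without saline replicate 1 and PD-1 combination replicate 3, a setting chosen after seeing the data, Cpa3 differed by 1.91 on the log2 scale between SD-101 and saline and Fcer1a by 1.15, in place of 1.57 and 0.78. Between the PD-1 combination and SD-101 Fcer1a then differed by -1.17, in place of -0.88.

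**Figure D2:**
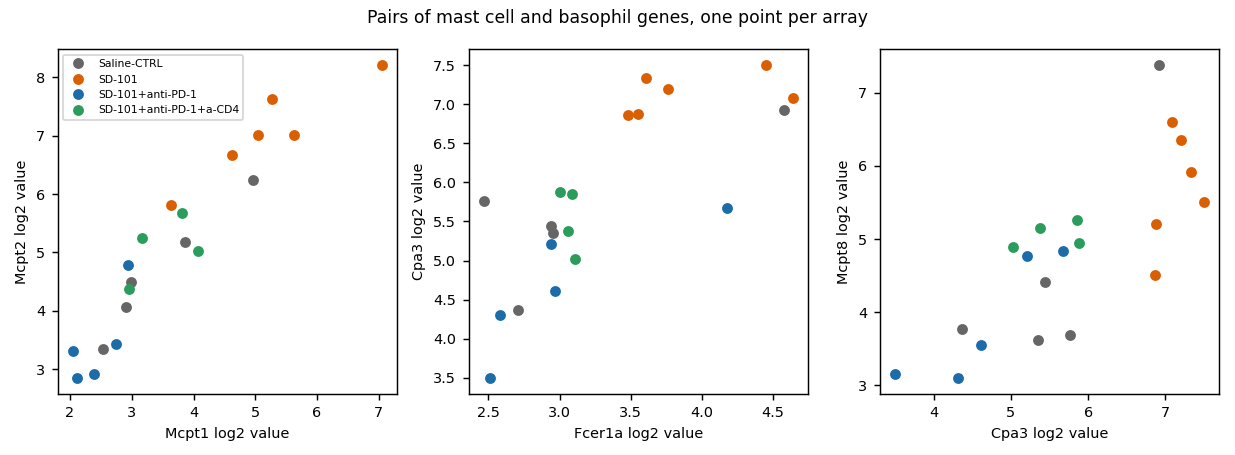
Log2 intensities of Mcpt2 against Mcpt1, Cpa3 against Fcer1a and Mcpt8 against Cpa3, with 1 point per array coloured by group. Mcpt1 and Mcpt2 lie along 1 line across all groups, while saline replicate 1 lies with the SD-101 arrays in the Cpa3 and Fcer1a panel (6.92 and 4.58) and highest in Mcpt8 (7.38).

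Within groups the members fell into different company. With group means removed, the correlation over the 20 arrays was 0.86 between Mcpt1 and Mcpt2 and 0.61 between Cma1 and Mcpt2. It was 0.80 between Ms4a2 and Fcer1a, 0.71 between Cpa3 and Fcer1a and 0.71 between Cpa3 and Ms4a2. Between Mcpt2 and Cpa3 it was 0.01, between Mcpt1 and Cpa3 -0.10 and between Mcpt2 and Fcer1a 0.02. So the arrays of a group that were high in chymases were not in general those high in Cpa3 and the IgE receptor chains. These correlations describe 20 arrays that share a normalization. The pairs with Ms4a2 and Fcer1a may rest largely on the 2 arrays named above, which was not tested.

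Kit had another order of groups. Its values were 8.13, 6.94, 8.54, 8.46 and 7.98 with saline and 6.89 to 8.57 with a median of 7.69 with SD-101. With the PD-1 combination they were 6.45, 5.90, 6.54, 6.33 and 6.03, and with the CD4 combination 6.93, 5.77, 6.31 and 6.25. Saline and SD-101 overlapped, as did the combination groups. All arrays of both combination groups were below all saline arrays, with log2 differences of -1.76 (SE 0.32) and -1.69 (SE 0.34). With the PD-1 combination they were also below all SD-101 arrays, while the CD4 combination reached into the SD-101 range with replicate 1 at 6.93. The difference of SD-101 to saline was -0.31 (SE 0.31), in the opposite direction to Cma1 and Mcpt2.

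Kit is also made by lung endothelial cells, and endothelial transcripts were lower in both combination groups too. The mean of 14 endothelial markers was 7.5 to 9.54 on saline arrays and 6.65 to 8.96 on SD-101 arrays. It was 5.02 to 6.01 with the PD-1 combination and 6.08 to 7.43 with the CD4 combination. All 14 fell against saline in the PD-1 combination and in the CD4 combination (limma, Benjamini-Hochberg adjusted p under 0.05), where 5.63% and 7.12% of all genes were called. In the PD-1 combination Plvap fell by 4.45, Vwf by 3.49, Cldn5 by 3.35 and Calcrl by 3.28 (limma adjusted p = 0.000193 each). In the CD4 combination Vwf fell by 2.63, Calcrl by 1.99, Pecam1 by 1.86 and Esam by 1.5. Against SD-101, 13 of 14 fell in the PD-1 combination, Plvap by 3.54, Emcn by 3.34, Cldn5 by 2.8 and Calcrl by 2.62 among them. In the CD4 combination against SD-101 the median of the 14 was -1.526, with 0 called. Between the 2 combination groups none of these markers was called, and Kit was not called either. With a-CD4 added to the PD-1 combination, 13 of 14 marker differences were above 0 (median 1.190, 0 called), and Kit differed by 0.06. With this mean as a covariate, chosen after seeing the data, the log2 difference of Kit between the PD-1 combination and saline was 0.16 (SE 0.39) in place of -1.76, and against SD-101 0.11 (SE 0.33) in place of -1.45. Between the CD4 and the PD-1 combination Kit then differed by -0.58 (SE 0.24) in place of 0.06. Differences of the other genes between the PD-1 combination and SD-101 also changed with this covariate. Those of Cma1, Mcpt2 and Mcpt1 were -3.37 (SE 0.50), -3.39 (SE 0.87) and -2.39 (SE 0.87), in place of -2.99, -3.60 and -2.76. Mcpt4 differed by -0.34 in place of -0.66, Cpa3 by -3.18 in place of -2.48 and Tpsb2 by -0.70 in place of -0.23. For Fcer1a and Ms4a2 the values were -0.80 and -0.23, in place of -0.88 and -0.03. The endothelial mean itself separates these groups, so that the covariate and the treatment cannot be told apart, and with it no gene of the whole table was called in the PD-1 combination against SD-101. What part endothelial transcripts have in the difference of Kit was not tested further.

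**Figure D3:**
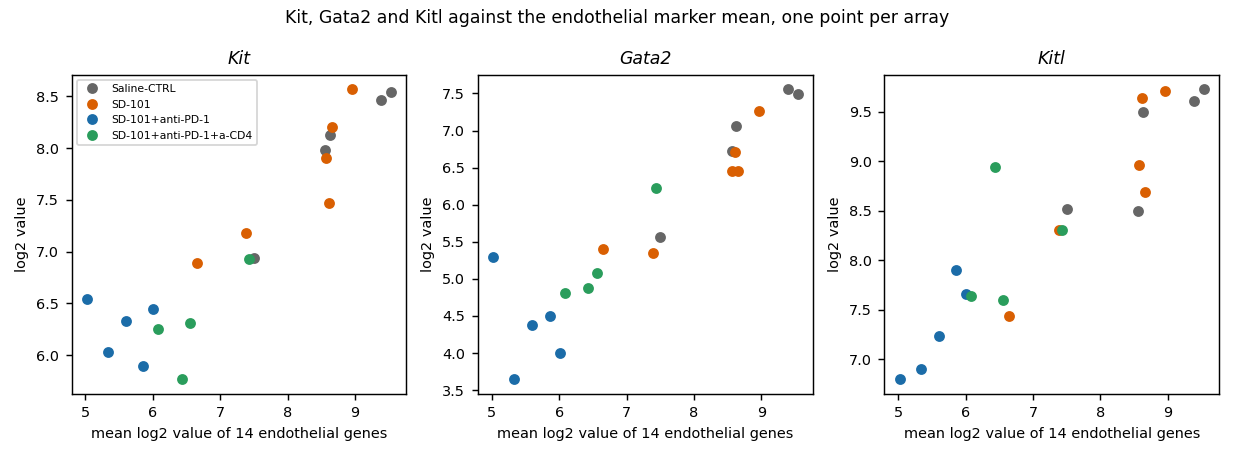
Log2 intensity of Kit, Gata2 and Kitl (y axes) against the mean log2 intensity of 14 endothelial genes (x axis), 1 point per array coloured by group. The 8 arrays with Kit at 7.47 or more are saline and SD-101 arrays with an endothelial mean of 8.56 or more, and all PD-1 combination arrays lie at an endothelial mean of 6.01 or less.

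Counts over the 9 genes in these comparisons carry the choice of the genes and are given for completeness. In SD-101 against saline 7 of 9 differences were above 0, as were 53.2% of those of all genes. Cma1 alone was above saline without overlap, against 0.807% of all genes, and 2 of 9 (Cma1 and Mcpt2) were past an adjusted p of 0.05 upward, against 0.298%. In the PD-1 combination against SD-101 all 9 differences were below 0, as were 48.1% of those of all genes. Cma1, Mcpt1, Mcpt2, Mcpt4, Cpa3 and Kit did not overlap between those groups, against 1.5% of all genes below, and the same 6 were past the threshold downward, against 1.25%. Against saline all 9 differences of the PD-1 combination were below 0, as were 43.5% of those of all genes. Kit alone was below saline without overlap in the PD-1 and in the CD4 combination, against 2.32% and 3.32% of all genes, and alone past the threshold downward, against 2.15% and 3.03%. In the CD4 combination against SD-101, Cma1, Mcpt2, Cpa3 and Fcer1a did not overlap, against 1.72% of all genes below, and Cma1 and Kit were past the threshold downward, against 0.409%. Nothing is read from these counts. The comparisons share arrays: each of the 3 against saline uses the same 5 saline arrays, and the SD-101 arrays that are high in the first are the reference of those against SD-101.

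**Figure D4:**
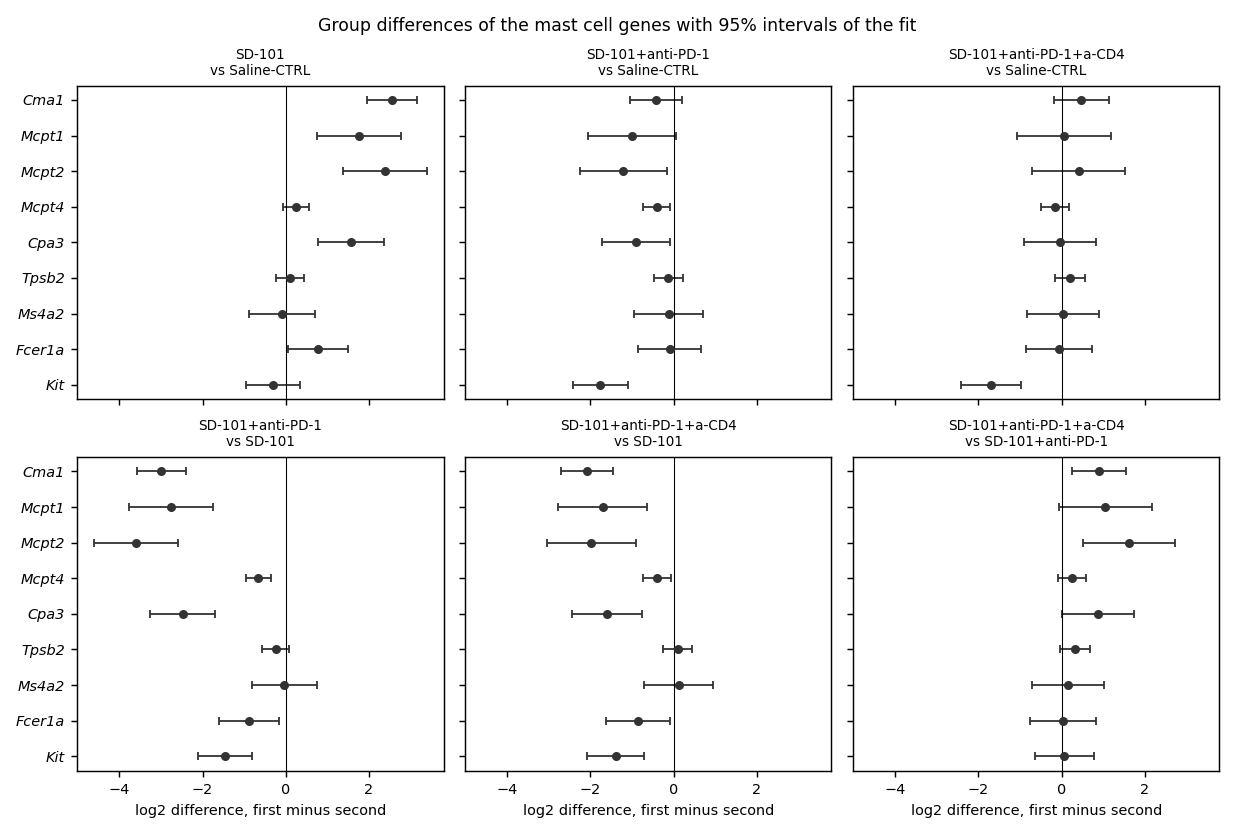
Log2 difference of each gene (x axis, first group minus second) in 6 comparisons; points are estimates of the fit over all 20 arrays and bars their 95% intervals, without adjustment for the number of genes. Cma1, Mcpt1, Mcpt2 and Cpa3 lie right of 0 for SD-101 against saline and left of 0 for the PD-1 combination against SD-101, and Kit lies left of 0 in all 4 comparisons of a combination group with saline or SD-101.

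The CD4 combination against the PD-1 combination shares no array with SD-101 against saline. Its reference is the PD-1 combination, on whose arrays several of the 9 genes were low against SD-101. Such falls may have been among the changes that led to the choice, so this comparison is not free of it, and its p-values carry that limit. It asked what a-CD4 added. None of the 9 genes was called by limma at an adjusted p under 0.05, where 2.13% of all genes were, and 3 of 9 had an unadjusted p under 0.05, as did 17.9% of all genes. Mcpt2 differed by 1.62 (95% interval 0.51 to 2.74, adjusted p = 0.112), and 3 of 4 arrays were above all PD-1 combination arrays. Cma1 differed by 0.90 (0.25 to 1.56, adjusted p = 0.132) and Cpa3 by 0.87 (0.00 to 1.74, adjusted p = 0.279) in the same fit. Without CD4 combination replicate 2, the array lowest in T cell transcripts, the limma adjusted p was 0.405 for Cma1 and 0.275 for Mcpt2. Mcpt1 differed by 1.05 (-0.07 to 2.18, limma adjusted p = 0.316), and was the only one of the 9 whose groups did not overlap, against 3.92% of all genes separated upward. All 9 differences were above 0, as were 50.5% of those of all genes, and low values on the reference arrays may have shaped this. For Kit the interval ran from -0.65 to 0.78 (limma adjusted p = 0.955), and for Ms4a2 from -0.72 to 1.03.

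Around the chymases, the stretch from Cma1 to Gzmb in the RefSeq annotation (GRCm38.p6) lists 26 genes, of which 15 were measured here. Among the measured genes Cma1 is followed by the pseudogene Mcpt-ps1, then Mcpt1, Mcpt2, Mcpt9, Mcpt4, Mcpt8 and Ctsg, and then the granzyme genes of cytotoxic T cells. The chymase gene Cma2, annotated between Mcpt-ps1 and Mcpt1, was not analysed here. The annotated span of Mcpt2 includes Mcpt9, a further mast cell protease. Mcpt-ps1 differed by 0.15 (SE 0.15) and Mcpt9 by -0.10 (SE 0.12) between SD-101 and saline, and neither was called in any of the 6 comparisons. Mcpt8 differed by 1.11 (SE 0.57, adjusted p = 0.638 in limma) there and by -1.80 (SE 0.57, adjusted p = 0.0779) between the PD-1 combination and SD-101, and did not pass either test. Gzmb, at the far end, rose with SD-101 by 1.88 (SE 0.39, adjusted p = 0.0441 in limma). Between the PD-1 combination and SD-101 Gzmb differed by 0.21 (SE 0.39), beside -3.60 for Mcpt2. Gzmc was the only granzyme gene of the 7 that passed in that comparison, and fell by 0.87 (SE 0.23, adjusted p = 0.0343 in limma). Gzmd and Gzmf rose by 0.71 and 0.91 with a-CD4 added to the PD-1 combination (limma adjusted p = 0.0436 and 0.043), where no chymase gene passed. Against saline Gzmb rose by 2.09 in the PD-1 combination (limma adjusted p = 0.0039). In the CD4 combination Gzmb, Gzmd, Gzme and Gzmf rose against saline, by 2.4, 0.71, 0.92 and 0.85 (limma adjusted p = 0.00259, 0.0202, 0.0418 and 0.0256).

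**Figure D5:**
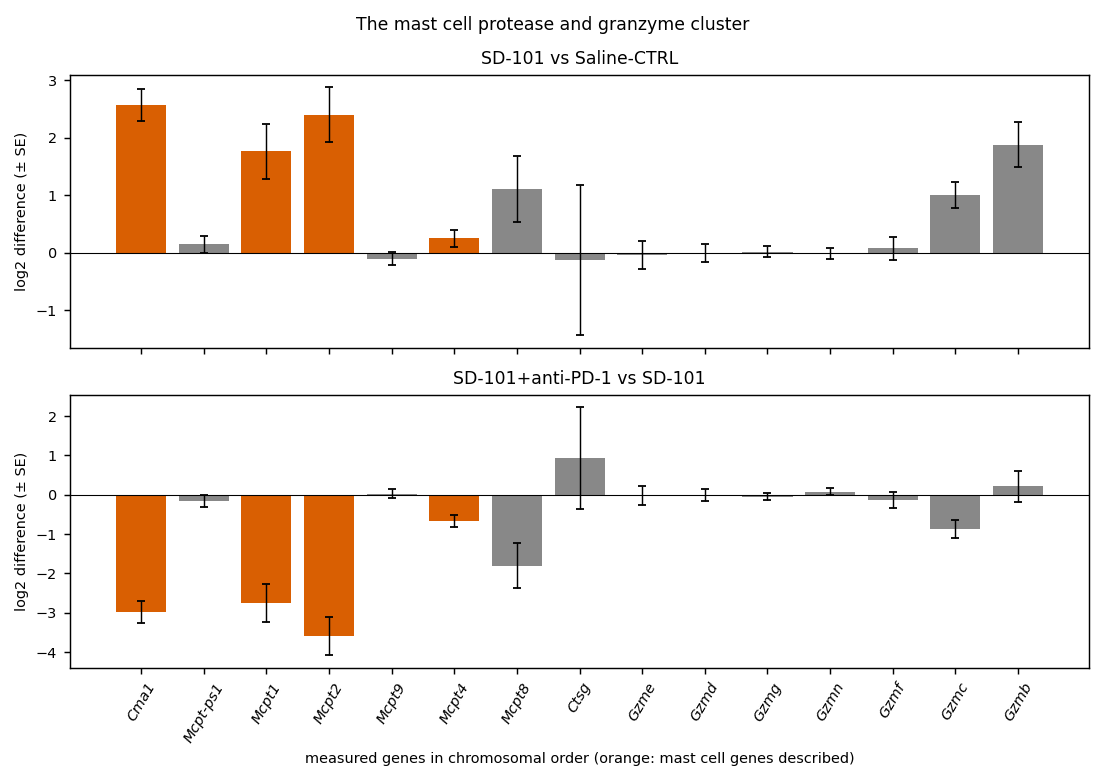
Log2 difference with its SE (y axis) of the 15 measured genes of the protease and granzyme cluster in chromosomal order (x axis, not to scale), for SD-101 against saline (top) and the PD-1 combination against SD-101 (bottom). The described chymase genes are orange; Cma1 and Mcpt2 stand at 2.57 and 2.40 at the top and at -2.99 and -3.60 below, while Gzmb stands at 1.88 and 0.21.

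Other genes of mast cell biology were counted from lists chosen by function. Of 13 measured granule and mediator genes none passed in any of the 6 comparisons (limma; 1 to 5 had an unadjusted p under 0.05, as did 8.27% to 20.8% of all genes). Of all genes 0.333% were called in SD-101 against saline, 4.77% in the PD-1 combination and 0.983% in the CD4 combination against SD-101, in either direction. Among them the tryptase gene Tpsab1 was 2.62 to 3.96 with SD-101 and 2.51 to 3.09 with saline. Hdc, the histamine-forming enzyme, averaged 6.5 ± 1.0 (SD, n = 6) with SD-101, 6.73 ± 1.76 (SD, n = 5) with saline and 8.34 ± 0.44 (SD, n = 5) with the PD-1 combination, an order unlike that of the chymases. The mean of 18 lung epithelial markers was likewise highest with the PD-1 combination, at 9.63 to 10.10, beside 7.86 to 9.73 with saline, 8.26 to 9.43 with SD-101 and 8.28 to 9.27 with the CD4 combination. The median log2 difference of these 13 genes between the PD-1 combination and SD-101 was -0.125, beside -1.454 for the 9 mast cell genes and 0.008 for all genes.

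Of 12 measured signalling and transcription factor genes, 2 fell and 1 rose in the PD-1 combination against SD-101, where 1.25% of all genes fell and 3.52% rose. Gata2, a transcription factor of mast cells, basophils and endothelium, fell by 1.91 (SE 0.41, adjusted p = 0.0122 in limma). Lat2, an adaptor of IgE receptor signalling, fell by 1.29 (SE 0.32, adjusted p = 0.0269), and Rab27b, which moves secretory granules, rose by 0.72 (SE 0.20, adjusted p = 0.0492). Gata2 also fell against saline, by 2.52 in the PD-1 combination and by 1.63 in the CD4 combination (limma adjusted p = 0.00135 and 0.0345). It averaged 6.88 ± 0.81 (SD, n = 5) with saline, 6.27 ± 0.75 (SD, n = 6) with SD-101 and 4.36 ± 0.62 (SD, n = 5) with the PD-1 combination, and so followed the order of Kit and of the endothelial markers.

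Of 10 growth factor and cytokine genes, Kitl, the ligand of Kit, fell in the PD-1 combination by 1.88 against saline and by 1.5 against SD-101 (limma adjusted p = 0.00763 and 0.0311). It was the only one of the 10 to fall in either comparison. Its levels were 8.5 to 9.73 with saline and 6.80 to 7.90 with the PD-1 combination. Il33, an alarmin of epithelium and endothelium that acts on mast cells, rose by 1.98 between the PD-1 combination and SD-101 (limma adjusted p = 0.04996). Lung epithelial markers moved with it: all 18 differences were above 0 there, with a median of 1.094, and 3 passed. Foxj1 rose by 2.01, Cldn7 by 1.38 and Epcam by 1.25 (limma adjusted p = 0.000398, 0.0334 and 0.0192). Foxj1 and Cldn7 also rose against saline, by 2.36 and 1.51, where 3.47% of all genes rose, and Foxj1 fell by 1.76 with a-CD4 added to the PD-1 combination (limma adjusted p = 0.00493). What part epithelial transcripts have in the values of Il33 and Hdc was not tested. Il10 rose by 0.72 in the CD4 combination against saline (limma adjusted p = 0.0244), where 4.09% of all genes rose. The cytokine genes Il3, Il4, Il9 and Il13 passed in none of the 6 comparisons. In the basophil list, which shares Fcer1a, Cpa3, Ms4a2 and Gata2 with the lists above, Gata2 was the only gene called outside the 9. Of 10 fibroblast markers, Col1a1, Col3a1 and Col1a2 rose in the PD-1 combination against saline, by 2.29, 1.24 and 0.48 (limma adjusted p = 0.00429, 0.0437 and 0.0395). In the CD4 combination against saline Col1a1 rose by 1.8 and Lum fell by 1.44 (limma adjusted p = 0.0279 and 0.0151). Col1a2 rose by 0.46 in the PD-1 combination against SD-101, and Lum fell by 1.4 with a-CD4 added (limma adjusted p = 0.0454 and 0.0425). Of 6 markers of group 2 innate lymphoid cells Arg1 alone passed, and fell by 2.25, 2.16 and 2.26 in the CD4 combination against saline, SD-101 and the PD-1 combination (limma adjusted p = 0.00151, 0.0127 and 0.00555). No eosinophil or T cell identity gene passed in any of the 6 comparisons (limma; at most 3 of 7 and 0 of 11 had an unadjusted p under 0.05).

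The genes whose pattern over 20 arrays was most like the mean of the 9 were Mcpt8 (Pearson r = 0.74), Grrp1 (0.696), C1qa (0.687), Plekho1 (0.676), Nostrin (0.67), Plxdc1 (0.669), Hbb-b2 (0.665) and Clec1b (0.664), out of 3166 genes with an SD of at least 0.5. With group means removed they were Emilin1 (0.729), Grb10 (0.71), Abcd2 (0.698), Mcpt8 (0.686), Fabp4 (0.643), Aph1c (0.643), Pros1 (0.641) and Spry4 (0.63). Mcpt8 alone was on both lists. The values describe likeness over these arrays, which fall into treatment groups.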

How the data were processed

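The authors deposited log2 intensities per probe set of Affymetrix arrays (20 samples). Per the submitters' processing notes affy, RMA, limma and build mm8 were used, with versions and roles not given in the sources used here. RMA compresses low values, so differences near the bottom of the scale may be understated. Of 45141 probe sets, 28898 carried 1 gene symbol. The probe set of highest mean over all arrays was kept for each of 17097 genes, without further normalization or filter. Array medians were 3.52 to 3.75, no arrays were identical, and precision is limited by the number of arrays.

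All 4 groups were fitted in limma 3.58.1 (R 4.3.3) with group means only, 2-sided, with Benjamini-Hochberg adjustment over all genes. A gene was called at an adjusted p under 0.05. The fit was tested on simulated data. The 9 genes, the lists and the rules were chosen with earlier results of these data known. Named are the 9 genes, called genes of the lists (at most 4 per list and comparison, by smallest p) and the 8 genes most like the mean of the 9. Other genes of the protease cluster, and Tpsab1, Hdc, Ctsg and Mcpt8, were named after their values were seen. Other settings changed the probe set, scaling, filter, variance model, groups fitted, replicate block and arrays.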

Additional observations from a re-analysis of the deposited data

Results flagged for a closer look

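In 4 of 36 combinations of a gene and a group, 1 array stood apart from the rest of its group by more than Dixon's 95% criterion, where chance gives about 5% of groups. Fcer1a was 4.58 on Saline-CTRL replicate 1, with the other saline arrays at 2.47 to 2.95. Fcer1a was 4.18 and Ms4a2 4.42 on SD-101+anti-PD-1 replicate 3, where the other arrays of the group were at 2.51 to 2.97 and 2.42 to 2.70. Ms4a2 was 3.40 on SD-101+anti-PD-1+a-CD4 replicate 2, with the others at 3.0 to 3.05, a gap small beside the spread of other groups.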

How the results depend on the processing

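Counts of the 9 genes past the threshold are no test, since the genes were chosen on such values. They show only how each setting moves the count. The share of all genes called under each setting is not given beside them. A change in a count may therefore come with a change in calls over all genes, and is not read as particular to the 9. With each array left out in turn, the number of the 9 genes called ran from 1 to 2 in SD-101 against saline, 5 to 6 in the PD-1 combination against SD-101 and 1 to 2 in the CD4 combination against SD-101. Mcpt2 left the first count without any of saline replicates 1, 2, 4 and 5 or SD-101 replicates 2 to 5, and Cpa3 entered it without saline replicate 1. Kit left the third without any array but SD-101 replicate 6. The number stayed at 1 for both combination groups against saline and at 0 in the CD4 combination against the PD-1 combination. Testing only genes at or above the median level left 2 of the 9 (Cpa3 and Kit), of which 0 instead of 2 were called in SD-101 against saline and 2 instead of 6 in the PD-1 combination against SD-101. Fitting only the 2 groups called 1 in SD-101 against saline. In the CD4 combination against SD-101, 1 was called with the probe set of highest SD and 1 with arrays centred. With the endothelial mean as a covariate, added after seeing the data, 1 was called in SD-101 against saline and 0 in the PD-1 combination against saline, the CD4 combination against saline, the PD-1 combination against SD-101 and the CD4 combination against SD-101. The difference of Kit then turned to 0.16 in the PD-1 combination against saline and 0.11 in the PD-1 combination against SD-101. The cause was not tested beyond the values given above. Without the 2 arrays of highest Ctsg, 3 were called in SD-101 against saline (Cma1, Cpa3 and Fcer1a), 6 in the PD-1 combination against SD-101 with Fcer1a in place of Mcpt4, and 2 in the CD4 combination against SD-101 with Cpa3 in place of Kit. Of 1038 values of single differences under other settings, the 2 of Kit above reversed and 11 others moved by more than 1 SD of the arrays. All of these came with the endothelial covariate. Of the 1038 values, 47 had the opposite sign, in 17 of 54 differences. Of these 47, 8 came with the covariate, among them the 2 of Kit above, and the other 39 concern differences of 0.13 or less. Samples share only a replicate number: same-numbered arrays deviated together with correlations of -0.391 to 0.515, over 0.1 in 9 of 27 pairs. With a replicate block, 2, 1, 1, 6, 3 and 0 of the 9 were called in the 6 comparisons, beside 2, 1, 1, 6, 2 and 0 without it. Over the deposited, centred and quantile scalings the median difference of all genes lay between -0.0272 and 0.0767.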
